A study of Mus musculus with 2 samples.

Results

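The cells described here are a small group of immune cells in the retina of mice given sodium iodate (NaIO3), an oxidant that injures the retinal pigment epithelium and is followed by loss of photoreceptors. They carry little complement C1q, the product that marks most retinal macrophages and microglia, and a few transcripts of genes known from blood monocytes, so their working label was C1q-low monocyte-like cells. The rule was met by 83 of the 15014 kept cells of the series. All 83 were in the NaIO3 library, where they were 0.879% of 9441 kept cells (0.701 to 1.09, exact binomial interval). The PBS library had 0 of 5573 kept cells, with an exact binomial upper limit of 0.0662%, and 3 counts of the total would be 0.0538%. Only 15 PBS cells met the immune cell condition given below. Among those the share of 0 had an upper limit of 21.8%, against a share of 4.29% of 1935 such NaIO3 cells.

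The data are droplet-based (10x) single-cell RNA counts from mouse retina. The NaIO3 mice had 20 mg per kg NaIO3 injected into a vein, the PBS mice had the same volume of phosphate-buffered saline (PBS), and retinas were taken on day 7. Retinas of 6 mice were pooled in each group and gave 1 library, so differences have no replicate check and no p-value is given. Intervals are at the 95% level and take in counting error alone. Strain, genotype and age are not given in the sample labels used here, though the name of the deposited NaIO3 counts holds the tag C57. The labels mention CD11b beads, which bind a surface protein of myeloid cells, only where they describe the NaIO3 pellets, although both libraries carry the cell type label CD11b-positive microglia, so treatment and bead selection cannot be told apart in any share set across the libraries.

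Cells were kept with at least 500 UMIs (unique molecular identifiers, counted transcripts), at least 300 genes and at most 15% mitochondrial UMIs. An immune cell was then taken as one with at least 3 UMIs, and at least 0.05% of its UMIs, from Tyrobp and Fcer1g, signalling adaptors of myeloid and NK cells. This condition was met by 1935 NaIO3 cells and 15 PBS cells. C1qa, C1qb and C1qc together made up under 0.3% of UMIs in 343 of these NaIO3 cells and 2 of these PBS cells. The NaIO3 cells under that limit fell into 70 with a UMI of the dendritic cell genes Flt3, Xcr1 or Clec9a, 39 others with 3 or more UMIs of the NK genes Nkg7, Xcl1 and Gzma, 151 others with under 2 UMIs of Ly6c2, Ccr2, Plac8, Ms4a4c, Chil3 and Fn1, and the 83 described here. Levels of C1q, Tyrobp, Fcer1g and the genes of the other conditions chose the cells and are given as descriptions. The 83 are called C1q-low selected cells below and were set against the 1592 immune cells of the same library with 0.3% C1q or more, called C1q-high cells.

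The NaIO3 library held 9746 barcodes and 75981079 UMIs, the PBS library 6242 barcodes and 26605477 UMIs, and 24 barcodes occurred in both. The C1q-low selected cells had 739 to 55735 UMIs each (median 6487, sum 735109), and the C1q-high cells 502 to 183326 (median 3647, sum 21991699). Levels are in CPM, a gene's UMIs summed over a set of cells per 1000000 UMIs of that set, and ratios are C1q-low selected over C1q-high. A gene was called at a ratio of 2 or more, or of 1/2 or less, where either set reached 20 CPM and the gene had 20 or more UMIs in all. Of 7297 genes compared, 954 were at least 2 times higher (13.1%) and 569 at least 2 times lower (7.8%), and the median log2 ratio was 0.001. TMM scaling moved that median to -0.22 and gave 756 higher and 844 lower, and median-of-ratios scaling moved it to -0.20 and gave 768 higher and 820 lower. Counts of list genes set against C1q-high cells below stand beside the main shares of 13.1% and 7.8%, with lists taken at 10 CPM.

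Classical monocytes are blood cells with much Ly6c2 and Ccr2, the receptor for the chemokine Ccl2, and they enter injured tissue, where they can become macrophages or antigen-presenting cells. Resident microglia and long-lived macrophages make C1q, the starter of the classical complement pathway. Cells that present antigen to CD4 T cells load peptides onto MHC class II, a pair of chains whose genes are switched on together by the coactivator Ciita, with Cd74 as the invariant chain and H2-DMa and H2-DMb1 as peptide exchangers.

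The genes of the label were few in these cells. Ly6c2 (chr15:75108158-75111970, minus strand, mm10) was found in 15 of the 83 cells, with 47.6 CPM in C1q-low selected cells and 96.8 CPM in C1q-high cells. When every cell was given the same weight, the order turned, with a mean Ly6c2 level of 146 CPM in C1q-low selected cells and 60.4 CPM in C1q-high cells. Reads of Ly6c2 and its near-identical neighbour Ly6c1 can be split uncertainly by the counting. Ccr2 (chr9:124101950-124113557, plus strand) was found in 33 cells, at 147 CPM in C1q-low selected cells and 112 CPM in C1q-high cells. Ms4a4c, a membrane protein of the Ms4a family (chr19:11404770-11427246, plus strand), was found in 50 cells, at 139 CPM in C1q-low selected cells and 171 CPM in C1q-high cells. Plac8 (chr5:100553725-100572245, minus strand) was the gene by which most UMIs entered, with 314 UMIs in 41 cells and 427 CPM in C1q-low selected cells, against 110 CPM in C1q-high cells. Tyrobp stood at 1475 CPM in C1q-low selected cells and 2258 CPM in C1q-high cells.

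Membership rested on few transcripts. Exactly 2 UMIs of the 6 genes were seen in 17 cells, 3 UMIs in 9 and 4 or more in 57, with a median of 6 and a highest value of 73. Plac8 gave 46.5% of these UMIs, Fn1 17.3%, Ccr2 16.0%, Ms4a4c 15.1% and Ly6c2 5.18%. Chil3, a secreted lectin of classical monocytes, had 0 UMIs in all 83 cells. Neither Ly6c2 nor Ccr2 was found in 39 cells, both were found in 4, and no cell had a UMI of each of Ly6c2, Ccr2, Plac8 and Ms4a4c. Fn1 (chr1:71585520-71653200, minus strand), which encodes the matrix protein fibronectin, was the gene without which 18 cells would have missed the rule, and had 159 CPM in C1q-low selected cells and 258 CPM in C1q-high cells. With the same weight for every cell its mean level was 429 CPM in C1q-low selected cells and 172 CPM in C1q-high cells, and in the 53 cells with few rod and endothelial transcripts its ratio was 0.109. In the list of 21 classical monocyte genes, 15 reached 10 CPM in either set. Of these, 5 were at least 2 times higher and 4 at least 2 times lower, beside 13.1% and 7.8% of all genes compared. The rule's own genes Plac8 and Ly6c2 are among the list genes called. Outside the rule the higher genes were Ifitm6, S100a4, S100a6 and Napsa and the lower ones Lyz2, Thbs1 and Cd14. Lyz2, the lysozyme of monocytes and macrophages, had 905 CPM in C1q-low selected cells and 2365 CPM in C1q-high cells (ratio 0.383, 0.354 to 0.413). Vcan stood at 1 UMI, Hp at 2 UMIs and F13a1 at 0. Because these defining genes were sparse, the monocyte name is not used below.

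Limits of the rule were looked at from both sides. The 25 members with 0.2 to under 0.3% C1q and the 21 C1q-high cells with 0.3 to under 0.4% that met the other conditions were near each other in the MHC class II genes H2-Aa, H2-Ab1, H2-Eb1 and Cd74 (16465 and 16254 CPM) and of the 6 monocyte genes (793 and 702 CPM), while Il1b stood at 192 CPM in the members and 475 CPM in the C1q-high cells. The 17 members with exactly 2 UMIs of the 6 genes had 28502 CPM of the MHC class II genes, against 10792 CPM in the 42 C1q-low cells with 1 UMI, and Il1b stood at 1121 CPM in those members, against 48.7 CPM. These 17 and 42 cells also differed in depth (medians of 2788 and 1885 UMIs) and in genes of rod photoreceptors (6008 and 20865 CPM). The part of either in the contrast was not tested. The 17 C1q-low cells that missed the rule through 1 UMI of Flt3, Xcr1 or Clec9a had 41918 CPM of the MHC class II genes and 1183 CPM of Il1b.

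The 83 cells were not alike. Clustering them on their own gave 4 clusters, and since the clusters were built from these genes, the genes that lead them are descriptions. Cluster 1, the largest with 37 cells, was led by Tnip3, Ltb, Kmo, Plet1, S100a4, Atf3 and Il1b and was rich in MHC class II. Cluster 2, with 20 cells, was led by the endothelial genes Mgp, Ly6c1, Ptprb, Slco1a4 and Cldn5 and by the bipolar cell genes Pcp2, Gng13 and Trpm1. Mgp was found in 16 and Ly6c1 in 17 of these cells, Pcp2 in 8 and Trpm1 in 6. The 3 cells with the highest Trpm1 shares had 0 UMIs of Mgp, Ly6c1, Cldn5 and Flt1. Cluster 3, with 15 cells, was led by Gpnmb, Trem2, histone genes and the cell division genes Birc5, Mki67 and Top2a. Cluster 4, with 11 cells, was led by the glial gene Clu and the photoreceptor genes Guca1b, Rp1, Tulp1 and Sag. Clu was found in 8 of these cells and was highest in those with 55735 and 21965 UMIs.

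**Figure D1:**
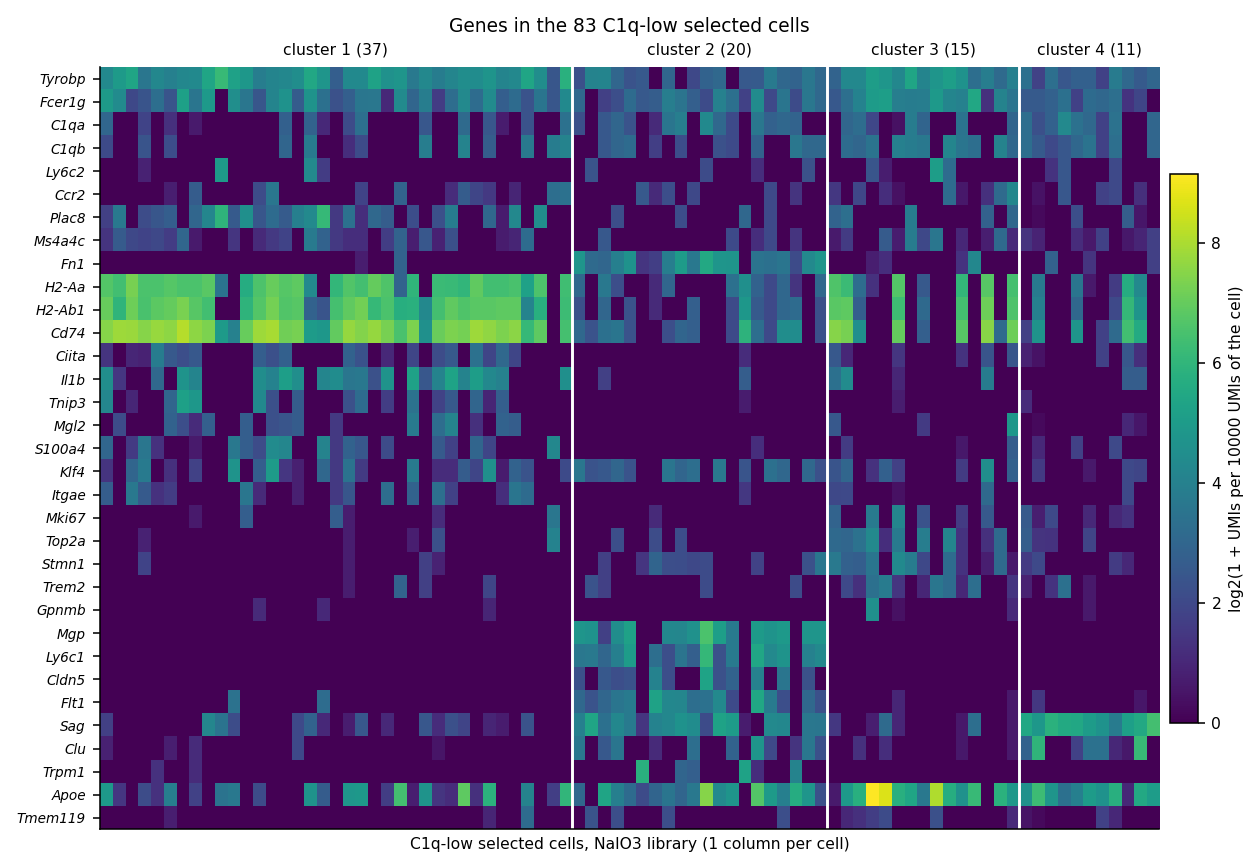
Each column is a C1q-low selected cell (83 in all, grouped by cluster with the number of cells) and each row a gene, with colour for log2(1 + UMIs per 10000 UMIs of the cell). H2-Aa, H2-Ab1 and Cd74 fill most of cluster 1, Fn1, Mgp and Flt1 most of cluster 2, and Sag all of cluster 4.

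Rule genes were spread unevenly over the clusters. Plac8 was found in 28 of 37 cells of cluster 1, 4 of 20 of cluster 2, 5 of 15 of cluster 3 and 4 of 11 of cluster 4. Fn1 was found in 19 of the 20 cells of cluster 2 and in 2 of the 37 cells of cluster 1, and it gave 75% of the rule UMIs of cluster 2. Of the 18 cells that met the rule only through Fn1, 14 were in cluster 2. Ccr2 was found in 9 of 15 cells of cluster 3 and 13 of 37 of cluster 1. Ly6c2 was found in 3 or 4 cells of every cluster.

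Markers of other retinal cells differed between the clusters. The rod photoreceptor list (12 genes) took a median of 0.0490% of a cell's UMIs in cluster 1, 1.26% in cluster 2, 0.0286% in cluster 3 and 2.37% in cluster 4, against 0.0929% in C1q-high cells. At least 1% of UMIs came from this list in 12 of 20 cells of cluster 2 and 10 of 11 of cluster 4, and in 0 cells of clusters 1 and 3. The endothelial and pericyte list reached 3 UMIs in 17 of 20 cells of cluster 2 and in 2, 1 and 2 cells of clusters 1, 3 and 4. The scrublet caller marked 6 of the 83 cells as doublets (2 in cluster 2 and 4 in cluster 4) and 41 of the 1592 C1q-high cells. The deepest cell of cluster 4 held 31.5% of that cluster's UMIs. The part of rod and endothelial transcripts in the results was not tested. Ratios were also computed in the 53 cells with under 1% rod UMIs and under 3 endothelial UMIs. They are given below where a named gene changes sides of 1 there. No interval was computed for them, and those of Apod, Flt1, Hbb-bs and Cd36 rest on very few UMIs. By cluster the 53 cells were 35, 3, 14 and 1. The 3 of cluster 2 had the highest Trpm1 shares of that cluster, and 2 of them were marked as doublets. The 2 cells of cluster 1 left out had 3 or more endothelial UMIs and held all UMIs of Ace.

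**Figure D2:**
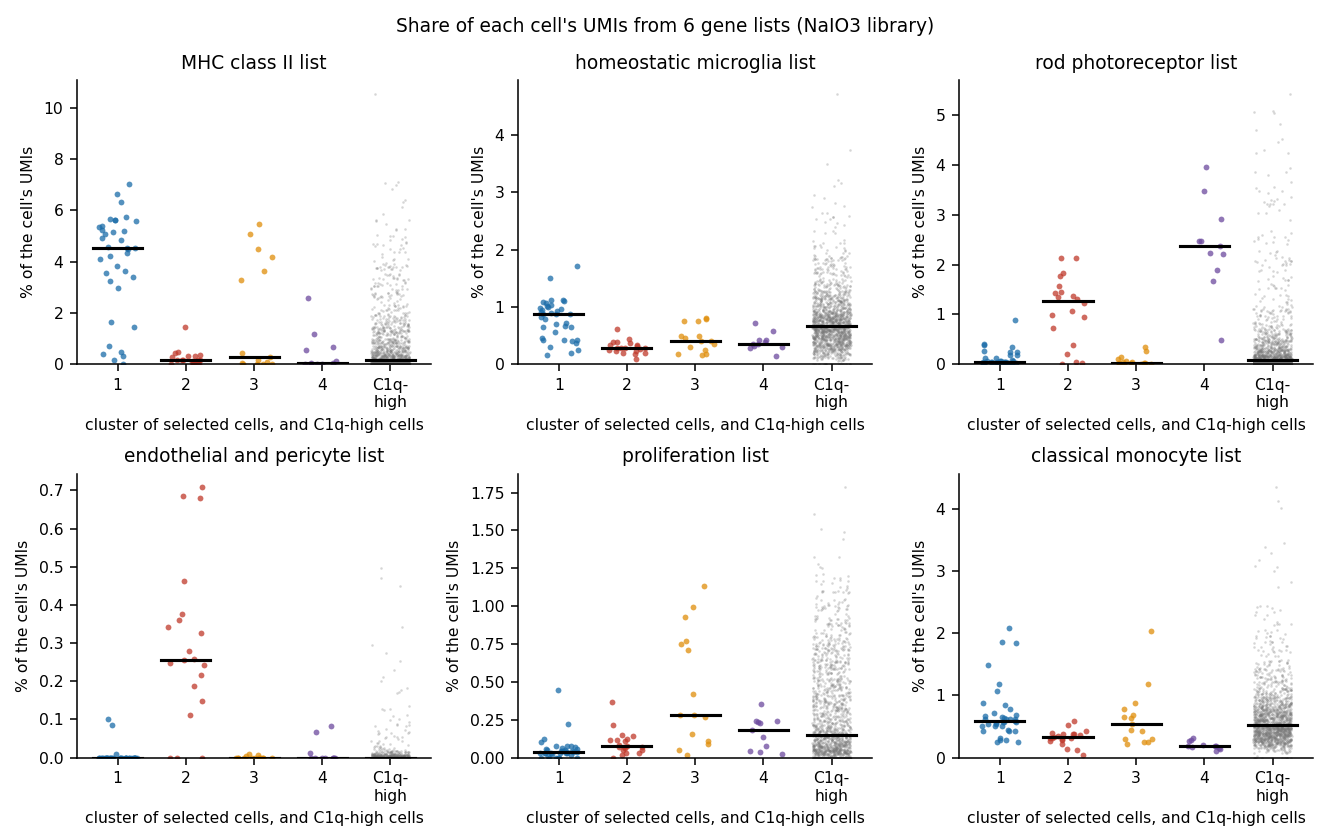
Points are cells, the vertical axis is the share of a cell's UMIs that comes from a gene list, and black bars are medians; clusters 1 to 4 of the C1q-low selected cells stand left of the 1592 C1q-high cells. The MHC class II share is high in cluster 1, the rod share in clusters 2 and 4, the endothelial share in cluster 2 and the proliferation share in part of cluster 3.

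MHC class II genes were abundant and stood higher in C1q-low selected cells. The 8 genes of the list all reached 10 CPM, and 6 were at least 2 times higher in C1q-low selected cells, with 0 lower and a median log2 ratio of 1.83 beside 0.001 over all genes. Their sum was 27242 CPM in C1q-low selected cells and 8243 CPM in C1q-high cells. H2-Aa, an alpha chain (chr17:34282744-34287823, minus strand), had 5331 CPM in C1q-low selected cells and 1521 CPM in C1q-high cells (ratio 3.50, 3.39 to 3.62). H2-Ab1, its partner beta chain, had 6071 CPM in C1q-low selected cells and 1693 CPM in C1q-high cells (ratio 3.59, 3.48 to 3.70). H2-Eb1, the beta chain of the other class II molecule, had a ratio of 3.68 (3.56 to 3.81), and Cd74, the invariant chain, had one of 3.07 (2.99 to 3.14). Ciita, the coactivator, had 208 CPM in C1q-low selected cells and 49.7 CPM in C1q-high cells (ratio 4.19, 3.51 to 4.96). H2-Oa, a chain of the peptide exchange inhibitor, had a ratio of 4.93 (3.87 to 6.21), and the exchangers H2-DMa and H2-DMb1 had 1.62 (1.43 to 1.82) and 1.82 (1.55 to 2.12).

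Per cell, the list took 0 to 7.02% of UMIs in C1q-low selected cells (median 0.660%) and 0 to 10.5% in C1q-high cells (median 0.154%), so the sets overlapped over the whole range of the C1q-low selected cells. Within the C1q-low selected cells the median was 4.52% in cluster 1, 0.155% in cluster 2, 0.292% in cluster 3 and 0.0488% in cluster 4. A share of 0.5% or more from H2-Aa, H2-Ab1, H2-Eb1 and Cd74 was reached by 43 of 83 C1q-low selected cells (51.8%, 40.6 to 62.9) and by 496 of 1592 C1q-high cells (31.2%, 28.9 to 33.5). By cluster this was 32 of 37, 1 of 20, 6 of 15 and 4 of 11 cells. With cells thinned to 1000 UMIs, H2-Aa was found in 61.3% of 80 C1q-low selected cells and 35.96% of 1357 C1q-high cells, against 1.02% of cells outside the Tyrobp and Fcer1g condition. The unthinned shares were 72.3% in C1q-low selected cells and 47.9% in C1q-high cells.

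Since these genes stood higher together, the stretches before their start sites are shown. MHC class II promoters carry a conserved module that ends in a Y box, an inverted CCAAT element bound by NF-Y. RefSeq promoter windows (GRCm38.p6, 250 bases before to 50 after the start) were matched by symbol for 5 of the 8 list genes, H2-Aa, H2-Eb1, H2-DMa, H2-DMb1 and H2-Oa. The letters TGATTGG, searched on both strands, were found in 4 of these 5 genes, all but H2-DMa, which has a pair of windows, and in 7.82% of all 32851 windows. The 100 bases around the match are printed 5′ to 3′ on the gene's strand, with the match in capitals, for H2-Aa (chr17:34287844-34287943, minus strand), H2-Eb1 (chr17:34305736-34305835, plus strand), H2-DMb1 (chr17:34153058-34153157, plus strand) and H2-Oa (chr17:34092264-34092363, plus strand).
H2-Aa: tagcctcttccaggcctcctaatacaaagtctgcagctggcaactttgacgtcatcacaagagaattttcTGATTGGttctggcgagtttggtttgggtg
H2-Eb1: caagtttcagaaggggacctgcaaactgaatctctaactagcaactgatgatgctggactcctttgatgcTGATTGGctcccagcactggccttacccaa
H2-DMb1: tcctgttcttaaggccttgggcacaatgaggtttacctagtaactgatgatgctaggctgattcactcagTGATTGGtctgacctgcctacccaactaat
H2-Oa: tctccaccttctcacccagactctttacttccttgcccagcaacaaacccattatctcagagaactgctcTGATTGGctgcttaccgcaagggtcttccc
In all 4 the match lay on the gene's own strand, 50, 61, 63 and 45 bases before the start in the order printed. The match describes the sequence and was not linked to the levels, and H2-DMa without it and H2-DMb1 with it had the 2 lowest ratios of the list.

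The series title names interleukin-1 beta, Nlrp3 and Cd36, and in these cells the 3 genes went different ways. Il1b, the inflammatory cytokine (chr2:129364570-129371139, minus strand), had 758 CPM in C1q-low selected cells and 165 CPM in C1q-high cells (ratio 4.59, 4.19 to 5.02). It was found in 24 of 37 cells of cluster 1 and 8 of the other 46 cells, and reached 1519 CPM in cluster 1, against 112, 358 and 130.1 CPM in clusters 2, 3 and 4. Nlrp3, the sensor of the inflammasome that matures interleukin-1, had 31.3 CPM in C1q-low selected cells and 40.3 CPM in C1q-high cells, and the ratio of 0.776 had an interval (0.489 to 1.17) that includes 1. The Nlrp3 ratio was 1.02 in the 53 cells low in rod and endothelial transcripts, and with equal weight per cell the mean was 34.7 CPM in C1q-low selected cells and 26.4 CPM in C1q-high cells. Cd36, a scavenger receptor for oxidised lipids, had 31.3 CPM in 6 C1q-low selected cells and 116 CPM in C1q-high cells (ratio 0.270, 0.171 to 0.406). Of these UMIs 39.1% came from 1 cell. In the 53 cells low in rod and endothelial transcripts the Cd36 ratio was 0.0187.

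Of the 15 inflammasome and interleukin-1 genes that reached 10 CPM, 2 were at least 2 times higher and 2 at least 2 times lower, with a median log2 ratio of -0.37. Over all genes compared 13.1% were higher, near the share in this list, and 7.8% lower. The decoy receptor Il1r2 had 17.7 CPM in C1q-low selected cells and 3.09 CPM in C1q-high cells (ratio 5.72, 2.90 to 10.5). The receptor antagonist Il1rn was at 1 UMI in C1q-low selected cells, or 1.36 CPM, against 21.7 CPM in C1q-high cells. Casp1, the protease that cleaves pro-interleukin-1, had 31.3 CPM in C1q-low selected cells and 34.7 CPM in C1q-high cells, and its ratio was 1.25 in the 53 cells low in rod and endothelial transcripts. After thinning, Il1b was found in 26.3% of C1q-low selected cells (17.0 to 37.3) and 7.001% of C1q-high cells (5.70 to 8.49), with 0.122% outside the Tyrobp and Fcer1g condition, and the unthinned shares were 38.6% of C1q-low selected cells and 20.2% of C1q-high cells.

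**Figure D3:**
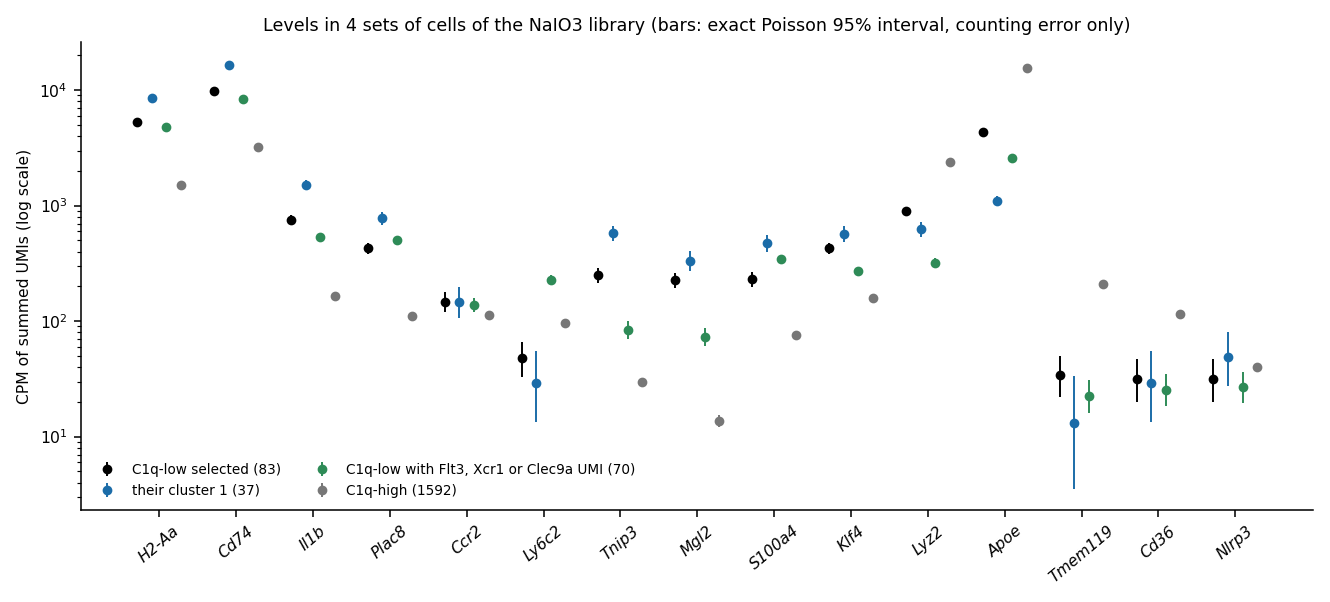
Points are CPM of summed UMIs on a log scale with exact Poisson 95% intervals (counting error only) for the 83 C1q-low selected cells, their cluster 1, the 70 C1q-low cells with a Flt3, Xcr1 or Clec9a UMI, and the 1592 C1q-high cells. H2-Aa, Cd74, Il1b and Plac8 are highest in cluster 1, Lyz2, Apoe, Tmem119 and Cd36 in C1q-high cells, and Nlrp3 lies between 26.8 and 48.9 CPM in all 4 sets.

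Genes known from monocyte-derived dendritic cells were mostly higher. Of 9 that reached 10 CPM, 6 were at least 2 times higher and 3 at least 2 times lower, with a median log2 ratio of 2.07. The lower ones were Ccr7, Cd7 and Fcrls, and Fcrls is also in the homeostatic microglia list. Against the C1q-low cells with a dendritic cell UMI, 2 of 10 were higher and 3 lower, beside 7.78% and 4.71% of all genes. Mgl2, a galactose-binding lectin of dendritic cells and macrophages (chr11:70130329-70137550, plus strand), had 226 CPM in C1q-low selected cells and 13.6 CPM in C1q-high cells (ratio 16.5, 13.6 to 20.1). It was found in 16 cells of cluster 1, 0 of cluster 2, 3 of cluster 3 and 3 of cluster 4, and 1 cell gave 30.1% of its UMIs. Tnip3, an inhibitor of NF-kB signalling (chr6:65525313-65634040, plus strand), had 249 CPM in C1q-low selected cells and 29.7 CPM in C1q-high cells (ratio 8.37, 7.07 to 9.88), and 17 of its 20 positive cells were in cluster 1. The lectin Clec10a had a ratio of 5.42 (3.63 to 7.89). Cd209a, a lectin used as a marker of these cells, had 5 UMIs in 2 cells. Ccr7, the receptor that leads dendritic cells to lymph nodes, had a ratio of 0.331 (0.0898 to 0.856).

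In the list of conventional and plasmacytoid dendritic cell genes, 14 reached 10 CPM, 5 were at least 2 times higher and 3 lower. Flt3, Xcr1 and Clec9a were at 0 by the rule, and Xcr1 is among the lower genes counted. Itgae, the alpha chain of an integrin of tissue dendritic cells and T cells, had 173 CPM in C1q-low selected cells and 44.7 CPM in C1q-high cells (ratio 3.86, 3.18 to 4.65). Zbtb46, a transcription factor of conventional dendritic cells, had 15.0 CPM in 10 C1q-low selected cells and 3.96 CPM in C1q-high cells (ratio 3.78, 1.82 to 7.11). The interferon-induced Bst2 had 369 CPM in C1q-low selected cells and 891 CPM in C1q-high cells.

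The nearest cells by the rule were the 70 C1q-low cells with a Flt3, Xcr1 or Clec9a UMI, which had a median of 15824 UMIs each. The C1q-low selected cells had a median of 6487, and the part of depth in this split was not tested. Among 7279 genes, the ratio to these cells was 2 or more for 566 (7.78%) and 1/2 or less for 343 (4.71%). Of the 8 MHC class II genes, 0 were called in either direction, and H2-Aa had 5331 CPM in C1q-low selected cells and 4842 CPM in the cells with a dendritic cell UMI (ratio 1.10, 1.06 to 1.14). Cell by cell the order was the other way, with a median MHC class II share of 0.660% of UMIs in C1q-low selected cells and 3.35% in the cells with a dendritic cell UMI. The share of 0.5% from the 4 class II genes was reached by 43 of 83 C1q-low selected cells and 61 of 70 cells with a dendritic cell UMI (87.1%, 77.0 to 94.0). Il1b had 758 CPM in C1q-low selected cells and 537 CPM in the cells with a dendritic cell UMI (ratio 1.41, 1.27 to 1.57). After thinning, Il1b was found in 26.3% of C1q-low selected cells and 38.6% of the cells with a dendritic cell UMI, again the other order. Ly6c2 stood at 47.6 CPM in C1q-low selected cells and 228 CPM in the cells with a dendritic cell UMI (ratio 0.209, 0.143 to 0.296). Thinned, it was found in 8.75% of C1q-low selected cells (3.59 to 17.2) and 7.14% of the cells with a dendritic cell UMI (2.36 to 15.9). The cells with a dendritic cell UMI also held 19 cells with 3 or more NK UMIs, a kind the rule leaves out of the C1q-low selected cells. The NK and T cell list summed to 135 CPM in C1q-low selected cells and 3019 CPM in the cells with a dendritic cell UMI. The part of these cells in the differences was not tested. Irf8, a transcription factor of type 1 dendritic cells and of monocytes, had 118 CPM in C1q-low selected cells and 341 CPM in the cells with a dendritic cell UMI (ratio 0.348, 0.274 to 0.436). Summed levels of Tnip3 (ratio 2.96, 2.36 to 3.72) and Mgl2 (ratio 3.09, 2.43 to 3.94) were higher in the C1q-low selected cells. By cell, Tnip3 was found after thinning in 10% of C1q-low selected cells (4.42 to 18.8). In the cells with a dendritic cell UMI this was 8.57% (3.21 to 17.7). The unthinned Tnip3 shares were 24.1% and 44.3%, the other order.

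Cluster 1 alone, set against the same cells, had 217 of 6718 genes with a ratio of 2 or more (3.23%) and 1383 of 1/2 or less (20.6%). Il1b had 1519 CPM in cluster 1 and 537 CPM in the cells with a dendritic cell UMI (ratio 2.83, 2.52 to 3.17). Tnip3 had a ratio of 6.86 (5.46 to 8.64), Mgl2 of 4.55 (3.46 to 5.97) and Irf8 of 0.258 (0.169 to 0.380). Against C1q-high cells, cluster 1 had 447 of 6633 genes with a ratio of 2 or more (6.74%) and 1456 of 1/2 or less (22%). Kmo, an enzyme of tryptophan breakdown, had 183 CPM in cluster 1 and 10.7 CPM in C1q-high cells (ratio 17.0, 12.5 to 22.8). Plac8 had 782 CPM in cluster 1 and 110 CPM in C1q-high cells.

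Other genes of monocytes stood higher or lower in C1q-low selected cells. S100a6, a calcium-binding protein, had 819 CPM in C1q-low selected cells and 171 CPM in C1q-high cells (ratio 4.80, 4.40 to 5.23). S100a4, of the same family, had 231 CPM in C1q-low selected cells and 75.3 CPM in C1q-high cells (ratio 3.07, 2.61 to 3.60). Napsa, an aspartic protease, had a ratio of 5.10 (4.34 to 5.96) and Ifitm6, an interferon-induced membrane protein, of 9.58 (7.13 to 12.7). Cd14, the lipopolysaccharide co-receptor, had 31.3 CPM in C1q-low selected cells and 117 CPM in C1q-high cells (ratio 0.268, 0.170 to 0.403). In the S100 and annexin list, 4 of 10 genes were at least 2 times higher and 1 lower, beside 13.1% and 7.8% of all genes. The neutrophil genes S100a8 and S100a9 had 0 UMIs. This list was not particular to the C1q-low selected cells, with 2175 CPM there and 2314 CPM in the cells with a dendritic cell UMI. After thinning, S100a4 was found in 12.5% of C1q-low selected cells and 24.3% of the cells with a dendritic cell UMI. Plac8 was found in 23.8% and 37.1%. No C1q-low selected cell had 3 or more UMIs of S100a8, S100a9 and Retnlg, against 5 of the 1592 C1q-high cells.

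Genes of non-classical, vessel-patrolling monocytes were 5 higher and 2 lower of 13, with a median log2 ratio of 0.60. Nr4a1, the transcription factor these cells need, had 136 CPM in C1q-low selected cells and 40.02 CPM in C1q-high cells (ratio 3.40, 2.74 to 4.18), and was found in 30 of the 83 cells. Ace had 24.5 CPM in C1q-low selected cells, but all 18 UMIs lay in 2 cells of cluster 1. Ear2, an eosinophil-type ribonuclease, had 73.5 CPM in C1q-low selected cells and 4.46 CPM in C1q-high cells, with 50% of its UMIs in 1 cell. Cx3cr1, the fractalkine receptor of these monocytes and of microglia, had 257 CPM in C1q-low selected cells and 977 CPM in C1q-high cells (ratio 0.263, 0.227 to 0.304). At least 2 UMIs of Ace, Treml4, Cd300e, Spn and Nr4a1 were found in 20 of 83 C1q-low selected cells (24.1%, 15.4 to 34.7) and 259 of 1592 C1q-high cells (16.3%, 14.5 to 18.2). The same was seen in 39 of the 70 C1q-low cells with a dendritic cell UMI (55.7%, 43.3 to 67.6). These sets differ in depth, with medians of 6487, 3647 and 15824 UMIs in that order, and no thinned value was computed.

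**Figure D4:**
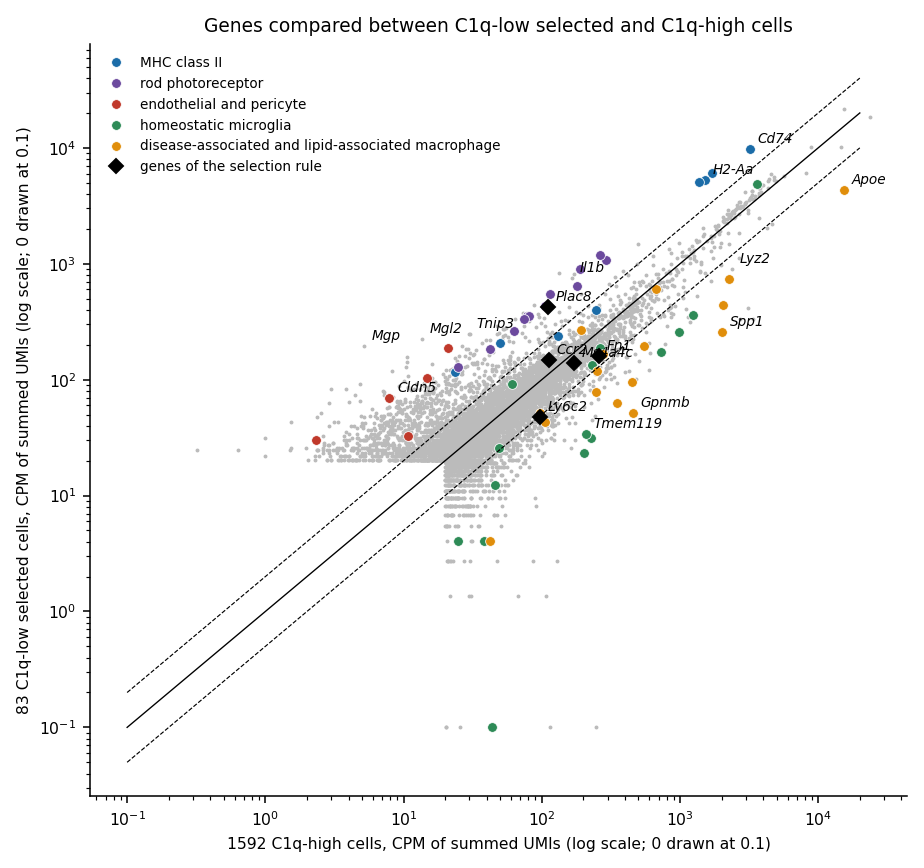
Points are the 7297 genes compared, with CPM in C1q-high cells on the horizontal and CPM in C1q-low selected cells on the vertical axis, both log scales with 0 drawn at 0.1; the dashed lines mark ratios of 2 and 1/2. MHC class II, rod and endothelial genes lie above the diagonal, homeostatic microglia and disease-associated genes mostly below it, and Ly6c2, Ms4a4c and Fn1 lie at or below it.

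Microglia and macrophage genes were lower together. In the homeostatic microglia list 15 of 18 genes reached 10 CPM, of which 0 were at least 2 times higher and 10 at least 2 times lower, with a median log2 ratio of -1.93. Tmem119, a microglial membrane protein, had 34.0 CPM in C1q-low selected cells and 208 CPM in C1q-high cells (ratio 0.163, 0.106 to 0.241). Csf1r, the receptor for the macrophage growth factor, had a ratio of 0.239 (0.1995 to 0.285). The widely expressed Cst3 was the exception among abundant members, with 4854 CPM in C1q-low selected cells and 3612 CPM in C1q-high cells. In the border and tissue macrophage list 6 of 8 genes were at least 2 times lower and 0 higher, with Ms4a7 at 100.7 CPM in C1q-low selected cells and 482 CPM in C1q-high cells.

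Disease-associated and lipid-associated macrophage genes were lower in 12 of 17 and higher in 0, with a median log2 ratio of -1.61. Apoe, the lipid carrier, had 4341 CPM in C1q-low selected cells and 15447 CPM in C1q-high cells (ratio 0.281, 0.271 to 0.291). Spp1, or osteopontin, had 260 CPM in C1q-low selected cells and 2013 CPM in C1q-high cells (ratio 0.129, 0.111 to 0.149), with 55.5% of its UMIs from 1 cell. Gpnmb, a glycoprotein of lipid-laden macrophages, had 51.7 CPM in C1q-low selected cells and 457 CPM in C1q-high cells (ratio 0.113, 0.0799 to 0.155), and 81.6% of its UMIs lay in 1 cell of cluster 3. Trem2, the lipid-sensing receptor, was found in 11 of 15 cells of cluster 3 and 4 of 37 cells of cluster 1. Lgals3, or galectin-3, had a ratio of 0.901 (0.819 to 0.990), and of 1.07 in the 53 cells low in rod and endothelial transcripts. Scavenger receptor and lipid handling genes were lower in 11 of 16 and higher in 1, the HDL receptor Scarb1 (ratio 2.55, 1.73 to 3.64), which had a ratio of 0.738 in the 53 cells low in rod and endothelial transcripts.

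Transcription factors stood on both sides. Of 22 in the list, 6 were at least 2 times higher and 4 at least 2 times lower, beside 13.1% and 7.8% of all genes compared. Klf4 had 426 CPM in C1q-low selected cells and 158 CPM in C1q-high cells (ratio 2.69, 2.39 to 3.02), and it was found in every cluster. Bhlhe40, a repressor induced by cytokines, had 235 CPM in C1q-low selected cells and 57.3 CPM in C1q-high cells (ratio 4.11, 3.48 to 4.82). Irf4, a factor of type 2 dendritic cells, had 38.1 CPM in C1q-low selected cells and 6.09 CPM in C1q-high cells (ratio 6.25, 4.004 to 9.45). Maf, a factor that maintains the macrophage state, had a ratio of 0.202 (0.141 to 0.280). Hif1a, the hypoxia factor, had a ratio of 2.16 (1.86 to 2.51), but of 1.18 in the 53 cells low in rod and endothelial transcripts.

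Chemoattractant genes were lower on balance, beside 13.1% higher and 7.8% lower among all genes compared. Of 15 chemokines, 3 were at least 2 times higher and 8 lower, and of 10 receptors for chemokines and other attractants 0 were higher and 6 lower. Ccl2, the ligand of Ccr2, had 170.0 CPM in C1q-low selected cells and 606 CPM in C1q-high cells (ratio 0.281, 0.233 to 0.335). Ccl12, a second Ccr2 ligand of mice, had a ratio of 0.204 (0.164 to 0.251). Ccl6 was higher, with 224 CPM in C1q-low selected cells and 94.6 CPM in C1q-high cells (ratio 2.37, 2.01 to 2.78). C3ar1, the receptor for complement C3a, had a ratio of 0.316 (0.249 to 0.396). Among adhesion genes, 1 of 15 was at least 2 times higher, the gut-homing integrin chain Itgb7 (ratio 3.53, 2.62 to 4.68), and 4 were lower, including Itgam, the CD11b chain, with 80.3 CPM in C1q-low selected cells and 173 CPM in C1q-high cells.

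Complement genes were lower in 9 of 14, of which C1qa, C1qb and C1qc were fixed by the rule, and higher in 3. For this and the next lists, the shares over all genes compared were 13.1% higher and 7.8% lower. Cfp, or properdin, which stabilises the alternative pathway, had 216 CPM in C1q-low selected cells and 80.7 CPM in C1q-high cells (ratio 2.68, 2.27 to 3.15). Fc and pattern receptor genes were lower in 11 of 19 and higher in 1, with the high-affinity IgG receptor Fcgr1 at a ratio of 0.268 (0.199 to 0.354). The lower ones include Fcer1g, a gene of the rule. Matrix, coagulation and protease genes were lower in 8 of 10 and higher in 0, and Tgfbi, a matrix protein of macrophages, had a ratio of 0.364 (0.316 to 0.416). Interferon response genes were higher in 3 of 20, the Ifitm genes Ifitm1, Ifitm2 and Ifitm6, which is near the 13.1% of all genes, and lower in 7. Other cytokines were higher in 2 of 11, Vegfa and Areg, and lower in 3, with all 9 UMIs of Areg in 1 cell. Iron and antioxidant genes were lower in 3 of 17 and higher in 1, with the haem-degrading enzyme Hmox1 at a ratio of 0.219 (0.116 to 0.375). Glycolysis and hypoxia genes were higher in 3 of 15 and lower in 1, near the shares over all genes. The 3 were Hif1a, Pfkp and the glucose transporter Slc2a1, which had a ratio of 4.33, but of 0.544 in the 53 cells low in rod and endothelial transcripts. Immediate early genes, which respond to dissociation, had 0 of 12 called, with Fos at 2055 CPM in C1q-low selected cells and 1472 CPM in C1q-high cells. With equal weight per cell, mean Fos was 2332 CPM in C1q-low selected cells and 820 CPM in C1q-high cells. Cluster 1 alone had 4 of the 12 at least 2 times higher than C1q-high cells and 0 lower, beside 6.74% and 22% of all genes in that comparison.

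Proliferation genes were lower in 4 of 12 and higher in 0. Mki67, a marker of dividing cells, had 182 CPM in C1q-low selected cells and 322 CPM in C1q-high cells (ratio 0.565, 0.473 to 0.671). Within the C1q-low selected cells it stood at 45.6, 11.2, 580 and 141 CPM in clusters 1 to 4, and it was found in 6 of 15 cells of cluster 3. Top2a, a topoisomerase of dividing cells, was found in 11 of those 15 cells. NK and T cell genes were lower in 12 of 13, but the rule left cells with 3 or more NK UMIs out of the C1q-low selected cells and left 116 such cells among the C1q-high cells. Of the 6 B cell and 6 mast cell and basophil genes, 1 and 0 reached 10 CPM. Of the 8 erythrocyte and platelet genes 1 did, the haemoglobin gene Hbb-bs, with a ratio of 2.19, and of 0.317 in the 53 cells low in rod and endothelial transcripts.

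The 15 highest ratios among well-counted genes were led by genes of blood vessels. Mgp, or matrix Gla protein, had 194 CPM in C1q-low selected cells and 5.18 CPM in C1q-high cells (ratio 37.5, 29.1 to 48.4), with all 143 UMIs in 16 cells of cluster 2. Vwf, Slco1a4, Foxq1, Ptprb, Apod, Ly6c1, Itm2a, Spock2, Igfbp7, Sgms1 and the synaptic gene Cplx2 were also highest in cluster 2, with ratios of 10.2 to 21.8. The others were Mgl2, Ear2 and Ifitm1, of which cluster 2 had 0 UMIs of Mgl2 and Ear2. In the 53 cells low in rod and endothelial transcripts the ratio was 0.535 for Apod and 0.599 for Sgms1, each from very few UMIs. That of Mgl2 was 25.7 and that of Ear2 17.97. Ly6c1 and Igfbp7 had 0 UMIs in these cells. With 3 UMIs put in place of 0, their ratios were at most 0.613 and 0.916. Mgp, Slco1a4, Foxq1, Ptprb and Itm2a, and Ace of the patrolling monocyte list, had 0 UMIs in these 53 cells and no ratio there.

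The endothelial and pericyte list had 5 of 6 genes at least 2 times higher, the rod list 12 of 12 and the Müller glia list 6 of 9, with 0 lower in each. The Müller glia list took a median of 0.108% of UMIs in the C1q-low selected cells. The largest shares were 1.26% and 1.09%, in cells of cluster 4 with 55735 and 21965 UMIs, so the sums of this list lean on them. Cldn5, a tight junction protein of vessels, had 69.4 CPM in C1q-low selected cells and 7.91 CPM in C1q-high cells, and was found in cluster 2 alone. Sag, the arrestin of photoreceptors, had 1075 CPM in C1q-low selected cells and 290.5 CPM in C1q-high cells, against 6573 CPM in cells outside the Tyrobp and Fcer1g condition. In the 53 cells low in these transcripts the ratio was 0.103 for Flt1, from very few UMIs, 0.499 for Sag and 0.258 for Clu. Cldn5 had 0 UMIs there, and its ratio was at most 0.821, with 3 UMIs put in place of 0. H2-Aa had a ratio of 4.79 there, Il1b of 6.74 and Tnip3 of 12.96, and 393 genes were at least 2 times higher and 905 at least 2 times lower.

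The 15 lowest ratios held 5 lymphocyte genes, Il2rb, Gzmc, Gzmb, Ptprcap and Gimap4, and 10 others, namely Ang, Ccl8, Gpnmb, Fcrls, Spp1, Olfml3, Gpx3, Cxcl10, Tmem119 and Adgre1. With the NK and dendritic cell exclusions applied to the C1q-high cells too, which left 1418 of them, the ratio was 2.08 for Gzmb, 11.8 for Gzmc, 2.28 for Ptprcap and 2.39 for Gimap4, each from 2 to 5 UMIs in C1q-low selected cells. Fcrls, an Fc receptor-like gene of microglia, had 23.1 CPM in C1q-low selected cells and 203 CPM in C1q-high cells (ratio 0.114, 0.0663 to 0.183). Adgre1, which encodes the macrophage antigen F4/80, had 29.9 CPM in C1q-low selected cells and 174 CPM in C1q-high cells (ratio 0.172, 0.107 to 0.260).

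The same genes were followed over the C1q share of all 1935 immune cells of the NaIO3 library, as a description. In bins of 0, over 0 to under 0.1%, 0.1 to under 0.3%, 0.3 to under 0.6%, 0.6 to under 1%, and 1% and over, there were 70, 97, 176, 328, 494 and 770 cells, of which 25, 18, 40, 0, 0 and 0 were C1q-low selected. Plac8 stood at 434, 477, 240, 219, 114 and 38.3 CPM over these bins, low to high. H2-Aa stood at 5713, 4086, 2628, 2102, 1448 and 1236 CPM. Both were lower in the highest bin than in the lowest, and the bins on either side of 0.3% were near each other. Il1b stood at 784, 387, 278, 191, 190.5 and 122 CPM, and Tmem119 ran the other way, at 1.57, 15.2, 46.1, 121, 213 and 258 CPM. The 6 monocyte genes together stayed between 677 and 993 CPM in all bins. The rod list was highest in the third bin, with 7864 CPM, and lowest in the last, with 987 CPM.

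**Figure D5:**
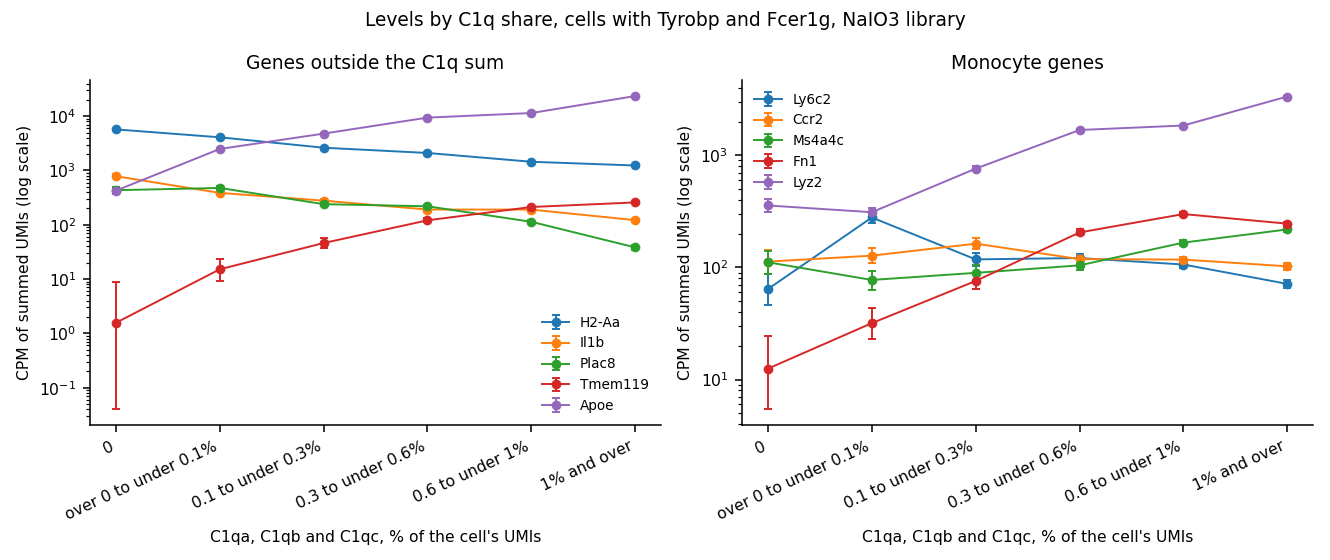
Levels (CPM of summed UMIs, log scale, with exact Poisson 95% intervals) of 10 genes over 6 bins of the C1q share of immune cells in the NaIO3 library. H2-Aa, Il1b and Plac8 are lower and Apoe, Tmem119 and Lyz2 higher in the last bin than in the first, while Ccr2 stays between 102 and 163 CPM.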

How the data were processed

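UMI counts per gene and barcode were used as the authors deposited them, from Cell Ranger 3.0.2 per the file headers and mm10 per the submitters' processing notes; no source used here gives the gene annotation version. Positions came from GENCODE M21 (30934 of 31053 gene IDs matched). Groups came from the treatment label. The cells, lists and rules were chosen with earlier results of these data known. Members were clustered with scanpy 1.11.5 (1000 variable genes, 10 components, 10 neighbours, Leiden resolution 0.5). Doublets were called by scrublet (expected rate 6%) and kept. Levels have exact Poisson, ratios exact conditional binomial and shares exact binomial (Clopper-Pearson) intervals. Genes of 32 lists were used at 10 CPM or more in either set. Named were up to 6 genes per list and the 15 highest and 15 lowest ratios at 50 CPM and 50 UMIs or more, without rule, mitochondrial, ribosomal, sex-linked and unnamed genes and those higher in cells outside the Tyrobp and Fcer1g condition; leading genes of clusters and some single genes were chosen after their values were seen. Cells thinned to 1000 UMIs left out 3 C1q-low selected and 235 C1q-high cells. With 1 library per group no test was run. Calculations were tested on simulated data. Alternatives were TMM and median-of-ratios scaling (edgeR 4.0.16), other filters and cell limits, doublet removal and free RNA subtraction.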

Additional observations from a re-analysis of the deposited data

How the results depend on the processing

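Counts of genes at least 2 times higher and lower were 954 and 569, and stayed within 1.5 times under most alternatives. The exceptions were 3639 and 1149 without the filter on low counts, 928 lower with members under 0.1% C1q, 549 higher with free RNA subtracted, and 393 and 905 with the 53 members low in rod and endothelial transcripts, an alternative chosen after seeing the data. Scaling by TMM moved the median log2 ratio of all genes to -0.22 (756 higher, 844 lower) and median of ratios to -0.20 (768 and 820). Higher genes were 62.6% of calls in the main comparison, 47.2% under TMM, 48.4% under median of ratios, 50.3% with members under 0.1% C1q, 44.8% with free RNA subtracted, 30.3% in the 53 members and 76.0% without the filter. The share of kept NaIO3 cells was 0.456% with members under 0.1% C1q, 0.604% with at least 4 monocyte-gene UMIs and 0.689% without Fn1 and Chil3, and the PBS library had 0 in each.

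Of 1943 pairs of a followed gene and an alternative (122 genes), 1450 stayed within the counting interval, 475 left it in the same direction or for genes not called, and 18 reversed. With equal weight per cell these were Ly6c2 (2.41) and Gimap4 (1.06). With free RNA subtracted it was Vegfa (0.0781). With the same exclusions for C1q-high cells, added after seeing the data, they were Gimap4 (2.39), Gzmb (2.08), Gzmc (11.8) and Ptprcap (2.28). In the 53 members they were Apod (0.535), Cldn5 (at most 0.821), Clu (0.258), Flt1 (0.103), Hbb-bs (0.317), Igfbp7 (at most 0.916), Ly6c1 (at most 0.613), Sag (0.499), Scarb1 (0.738), Sgms1 (0.599) and Slc2a1 (0.544). Cldn5, Igfbp7 and Ly6c1 had 0 UMIs in these members, and 3 UMIs were put in place of 0. The cause of the other changes was not tested. No paired analysis was possible because each group is 1 library. With 83 members, genes of a few UMIs have wide intervals. A value of 0 in PBS limits the share of kept cells only to 0.0662% by the exact binomial interval, and 3 counts of the total would be 0.0538%. Among the 15 PBS cells that met the Tyrobp and Fcer1g condition the limit was 21.8%.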
